A study of Mus musculus with 12 samples.

Results

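A set of 10 genes of neuropeptide signalling and peptide secretion were examined in the hippocampal CA1 subfield of mice, on 12 expression arrays. The 10 genes were Cartpt, Grp, Penk, Npy, Sst, Vip, Tac1, Resp18, Ecel1 and Baiap3, of 12394 genes measured, and each had 1 probe set that listed its symbol alone, so 10 of 22690 probe sets were described. They were chosen from measured values of these same arrays, and which comparison chose them is not recorded. The values of the 10 genes are therefore given as a description, with the number that the model fitted over all genes called and no p-value of their own.

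The study crossed genotype with surgery, in 4 groups of 3 samples: SUMO-KD mice after ischemia, SUMO-KD mice after sham surgery, wild-type mice after ischemia and wild-type mice after sham surgery. SUMO-KD stands for lowered levels of SUMO, the small ubiquitin-like modifier, which cells couple to many proteins to change their activity or place in the cell. Ischemia was 10 minutes of forebrain ischemia with 3 hours of reperfusion, and every sample pooled the CA1 tissue of 2 brains. The promoter and the targets of the knockdown construct, and the age and strain of the mice, are not given in the sources used here. Nothing in the labels ties a replicate number to a litter or a surgery day, so the spread within a group is that between pools of tissue.

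Neuropeptides are made as larger precursor proteins, cut to active peptides by prohormone convertases inside dense-core vesicles, released when a neuron fires strongly, and read by G protein-coupled receptors. In the hippocampus, somatostatin, neuropeptide Y and vasoactive intestinal peptide are markers of GABAergic interneurons, scattered among the pyramidal cells. The pyramidal cells themselves hold little of these peptides. Several precursor genes are classical targets of the transcription factor CREB, which binds the cAMP response element (CRE) in their promoters.

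The promoters of 8 of the 10 genes were read from RefSeq on build GRCm38.p6, and those of Grp and Penk were not read. The 4 with a CRE match are shown because 14 of 16 measured activity-regulated genes rose after ischemia in wild-type CA1, as given further on. Each line holds the 150 bases before the transcription start, 5′ to 3′ on the strand of the gene, with CRE matches in capitals. The stretches lie at chr13:99900684-99900833 on the minus strand for Cartpt, chr16:23890845-23890994 on the minus strand for Sst, chr10:5639068-5639217 on the plus strand for Vip and chr6:7554911-7555060 on the plus strand for Tac1.
Cartpt: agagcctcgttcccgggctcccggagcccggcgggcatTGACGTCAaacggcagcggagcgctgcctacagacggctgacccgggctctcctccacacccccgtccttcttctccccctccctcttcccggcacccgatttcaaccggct
Sst: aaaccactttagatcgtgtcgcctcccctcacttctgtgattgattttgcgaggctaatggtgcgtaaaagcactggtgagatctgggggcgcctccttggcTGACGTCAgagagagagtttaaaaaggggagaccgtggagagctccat
Vip: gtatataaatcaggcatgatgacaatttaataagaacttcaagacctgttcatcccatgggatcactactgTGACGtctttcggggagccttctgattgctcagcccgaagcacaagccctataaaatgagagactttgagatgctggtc
Tac1: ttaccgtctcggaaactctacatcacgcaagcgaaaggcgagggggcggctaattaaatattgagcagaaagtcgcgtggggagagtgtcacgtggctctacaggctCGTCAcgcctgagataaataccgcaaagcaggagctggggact

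The full palindromic CRE, TGACGTCA, began 112 bases before the start of Cartpt and 48 bases before that of Sst. Vip held the 5-letter core TGACG, which is also contained in the full element, 79 bases before its start. Tac1 held the core on the opposite strand, 43 bases before its start, and a further core match 197 bases before it, outside the stretch shown. In the 250 bases before the start, searched on both strands, the full element was found in 1.55% of 32851 promoters (508) and the core in 17.8% (5836). Npy, Resp18, Ecel1 and Baiap3 held no core match in that window, and none of the 8 promoters held the AP-1 letters TGANTCA, which 6.75% of all promoters held (2217). A match is a run of letters and not a shown binding site.

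Levels are the deposited linear intensities, scaled so that the trimmed mean of every array was 500.2. Differences are on the scale of log2(intensity + 32) with the standard error (SE) of the limma fit, and a gene was called at a Benjamini-Hochberg adjusted p under 0.05 over all 12394 genes. Array medians lay between 141 and 162, and 22.4% to 28.6% of probe sets on an array were under 32, a range in which a value is close to background. As a check of the labels, the SUMO-KD arrays read 1908 ± 28.3 for Sumo3 after ischemia and 1560 ± 194 after sham surgery, and the wild-type arrays read 3400 ± 140 after ischemia and 2343 ± 113 after sham surgery (SD, n = 3 each). A control, the 5′ probe set of 18S ribosomal RNA, read 1275 to 1660 on 5 ischemia arrays and 4194 to 6528 on the 6 sham arrays. SUMO-KD ischemia replicate 2 stood apart from the other ischemia arrays, at 4127. This control thus differed with surgery on all but that array, and its part in the ischemia differences was not tested.

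In SUMO-KD CA1, 5 of the 10 genes were higher than in wild-type CA1 after sham surgery: Cartpt, Grp, Resp18, Ecel1 and Baiap3. All 5 were called, where 1.5% of all genes (186) were called higher. After ischemia 4 of the 10 were called higher in SUMO-KD, Cartpt, Grp, Resp18 and Ecel1, where 1% of all genes (124) were. The lowest of the 6 SUMO-KD arrays was above the highest of the 6 wild-type arrays for the same 5 genes that were called after sham surgery, and this held for 1.78% of all genes (220). Penk, Npy, Sst, Vip and Tac1 were called in neither genotype comparison, and no member was called lower in SUMO-KD. The median log2 difference of the 10 genes was 0.90 after sham surgery and 0.95 after ischemia, against -0.01 and -0.00 over all genes. Because the genes were chosen with results of these arrays known, these counts and those for ischemia are a description only. In tissue RNA, more cells of a type and more RNA per cell cannot be told apart.

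**Figure D1:**
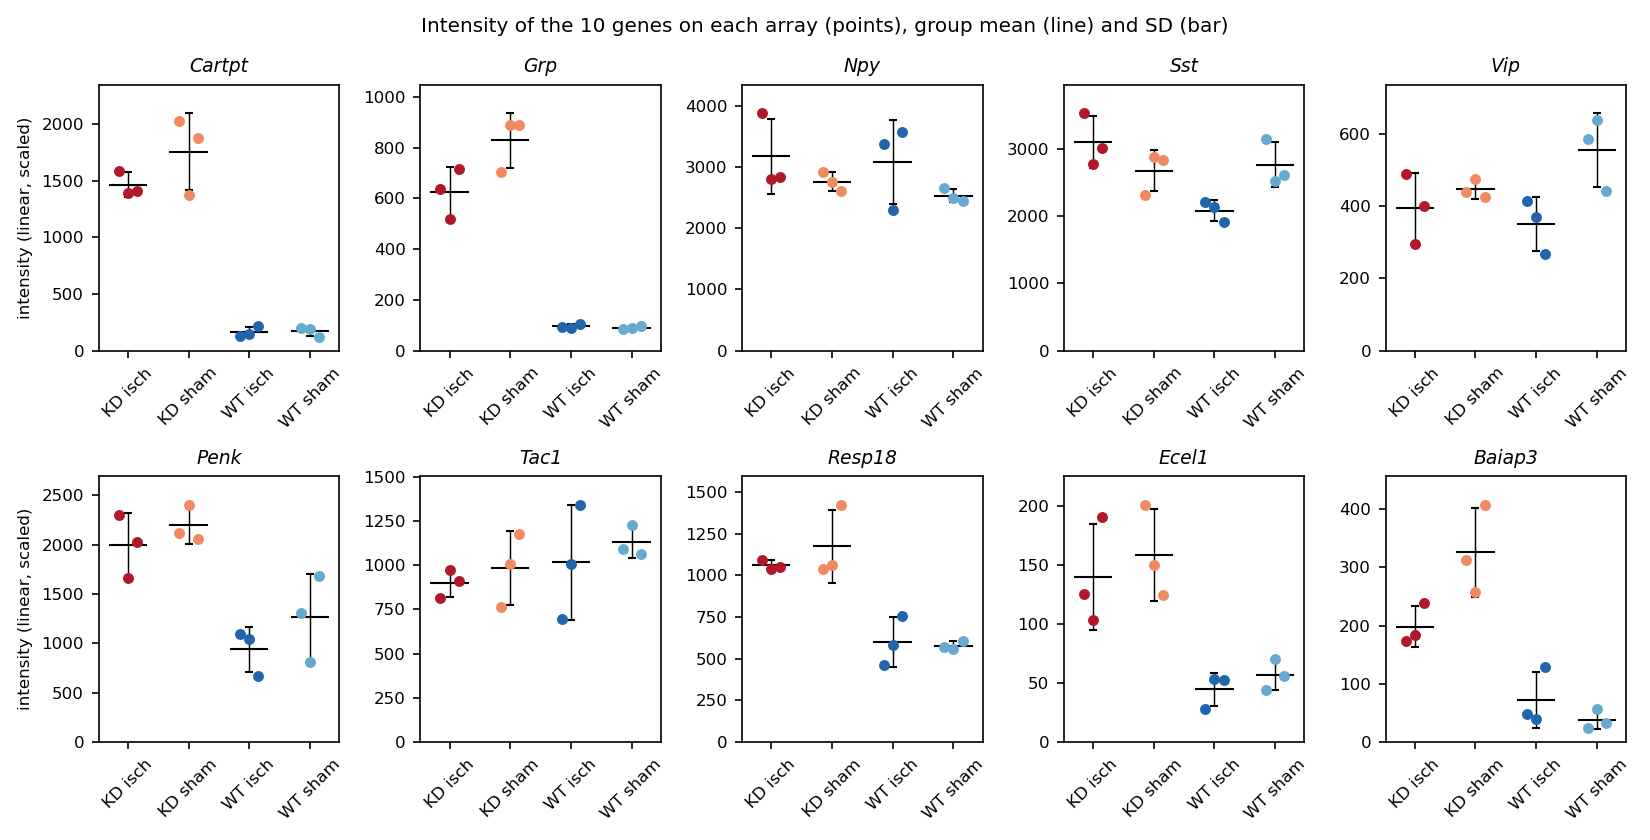
Linear intensity of each of the 10 genes on every array (points), with the group mean (line) and SD (bar, n = 3), one panel per gene with its own axis from 0, for SUMO-KD (KD) ischemia, KD sham, wild-type (WT) ischemia and WT sham. The 6 KD points lie above the 6 WT points for Cartpt, Grp, Resp18, Ecel1 and Baiap3, and the genotypes overlap for the other 5 genes.

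Cartpt, the precursor of the CART peptides that act in feeding, reward and stress circuits, showed the widest gap of the 10 genes between the genotypes. Its intensity was 1592, 1392 and 1412 in SUMO-KD ischemia and 2026, 1375 and 1878 in SUMO-KD sham, against 128, 146 and 216 in wild-type ischemia and 199, 186 and 124 in wild-type sham. Every SUMO-KD array was thus above every wild-type array, and the lowest SUMO-KD value was 6.37 times the highest wild-type value. The log2 difference was 3.15 (SE 0.20) after sham surgery and 2.96 (SE 0.20) after ischemia, in both cases rank 2 of all genes from the top. Within a genotype, ischemia and sham arrays overlapped, with log2 differences of -0.24 in SUMO-KD and -0.05 in wild-type.

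Grp encodes gastrin-releasing peptide, a bombesin-like peptide whose receptor sits mainly on inhibitory interneurons in the forebrain. It read 636, 521 and 718 in SUMO-KD ischemia and 705, 892 and 891 in SUMO-KD sham, against 94.2, 87.7 and 106 in wild-type ischemia and 84.5, 89.4 and 98.4 in wild-type sham. The wild-type arrays formed a narrow band at all 6 positions, and the SUMO-KD arrays began at 4.93 times its top. Grp differed by 2.80 (SE 0.13) after sham surgery and by 2.35 (SE 0.13) after ischemia on the log2 scale. Within SUMO-KD it was lower after ischemia by a log2 difference of -0.39 (SE 0.13), which was not called, and 2 of the 3 ischemia arrays were below all 3 sham arrays. That difference was called when SUMO-KD sham replicate 1 was left out, at -0.50.

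Penk, the precursor of the enkephalins that act on opioid receptors, had a smaller difference in the same direction. Its intensity was 2305, 1661 and 2027 in SUMO-KD ischemia and 2119, 2407 and 2060 in SUMO-KD sham. Wild-type arrays read 1096, 1046 and 672 after ischemia and 1305, 811 and 1683 after sham surgery. Across all 12 arrays the genotypes overlapped by 1 pair, wild-type sham replicate 3 at 1683 and SUMO-KD ischemia replicate 2 at 1661. The log2 differences were 0.83 (SE 0.25) after sham surgery and 1.08 (SE 0.25) after ischemia, and neither was called. The wild-type spread was wide, with a coefficient of variation of 8.48% in SUMO-KD sham against 34.5% in wild-type sham. Leaving out wild-type sham replicate 2 or 3 brought the difference after ischemia past the threshold at an unchanged 1.08.

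Resp18 encodes a protein of endocrine and neuroendocrine cells that is found along the secretory pathway. It read 1094, 1038 and 1051 in SUMO-KD ischemia and 1036, 1060 and 1425 in SUMO-KD sham, against 465, 580 and 758 in wild-type ischemia and 570, 558 and 608 in wild-type sham. The SUMO-KD arrays started 1.37 times above the highest wild-type array, and 5 of them lay close together with SUMO-KD sham replicate 3 above. The log2 difference was 0.97 (SE 0.16) after sham surgery and 0.81 (SE 0.16) after ischemia. The call after ischemia was lost when any SUMO-KD ischemia array or wild-type ischemia replicate 1 or 2 was left out, with differences from 0.65 to 0.99 over the 12 arrays left out in turn.

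Ecel1 encodes a membrane metallopeptidase of the neprilysin family, known from rodents to be induced in injured neurons. Its level was 125, 104 and 191 in SUMO-KD ischemia and 201, 150 and 124 in SUMO-KD sham. Wild-type arrays read 28.3, 53.1 and 52.4 after ischemia and 44.3, 70.4 and 56.2 after sham surgery, near the range of background. The lowest SUMO-KD array was 1.48 times the highest wild-type array, and ischemia and sham arrays overlapped in both genotypes. The log2 difference was 1.09 (SE 0.21) after sham surgery and 1.15 (SE 0.21) after ischemia, values that understate the ratio of a dim gene. The call after sham surgery was lost without SUMO-KD sham replicate 1 or 2 or wild-type sham replicate 1 or 3, at 0.93 to 1.11. The call after ischemia was lost without SUMO-KD ischemia replicate 1 or 3 or wild-type ischemia replicate 1, at 0.95 to 1.20.

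Baiap3, a C2-domain protein of the Munc13 family that acts in the trafficking of dense-core vesicles, read 173, 183 and 239 in SUMO-KD ischemia and 313, 257 and 408 in SUMO-KD sham. Wild-type values were 48.5, 40.4 and 128 after ischemia and 24.9, 56.5 and 33.0 after sham surgery. The genotypes did not overlap, with a factor of 1.35 between the lowest SUMO-KD and the highest wild-type array, which was wild-type ischemia replicate 3. The log2 difference was 2.36 (SE 0.28) after sham surgery, which was called, and 1.23 (SE 0.28) after ischemia, which was not. Without wild-type ischemia replicate 3 the difference after ischemia was 1.58 and was called. Ischemia differed from sham by -0.63 (SE 0.28) on the log2 scale in SUMO-KD and by 0.50 (SE 0.28) in wild-type, and neither was called. The difference of these 2 responses was -1.13 (SE 0.40) and was not called.

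**Figure D2:**
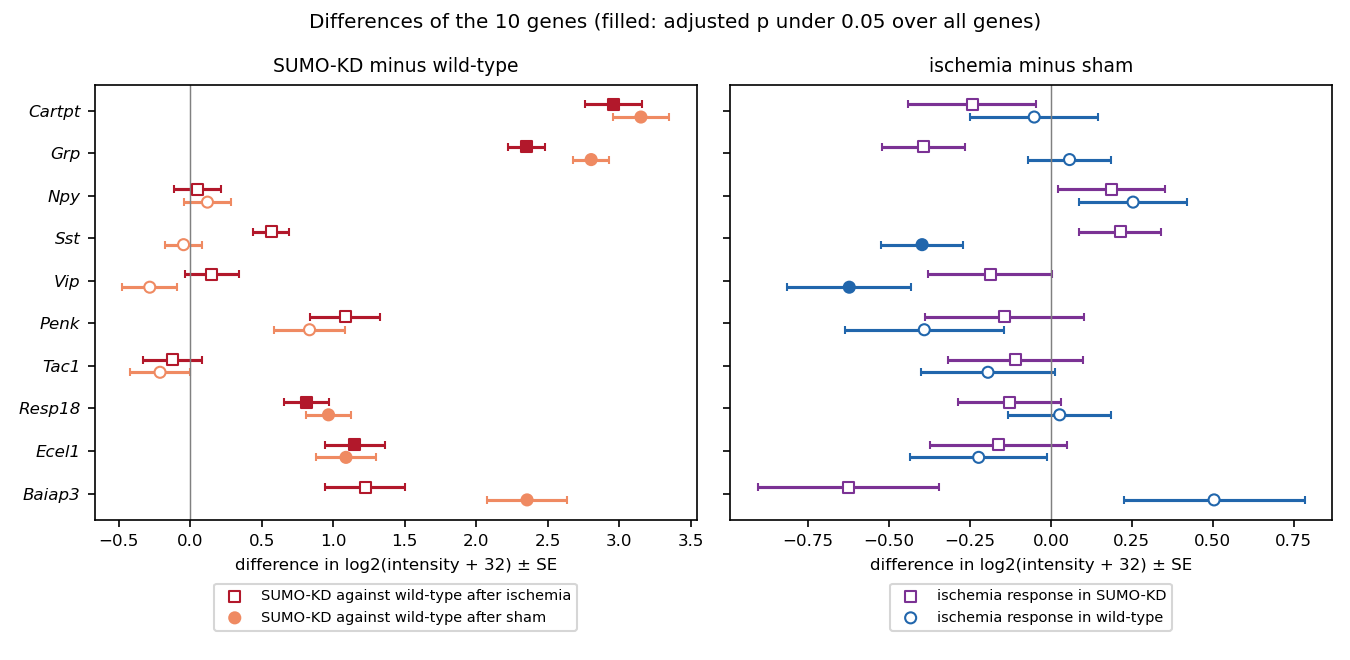
Differences in log2(intensity + 32) of the 10 genes with the SE of the fit, SUMO-KD minus wild-type on the left (squares after ischemia, circles after sham) and ischemia minus sham on the right (squares in SUMO-KD, circles in wild-type), filled where the adjusted p over all genes was under 0.05. Filled points sit at Cartpt, Grp, Resp18, Ecel1 and Baiap3 on the left, and at Sst and Vip in wild-type on the right.

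Fewer of the 10 genes were called for ischemia than for genotype. In wild-type CA1 Sst and Vip were called lower after ischemia, 2 of 10 where 8.88% of all genes (1101) were called lower, and no member was called higher, where 9.6% of all genes were. In SUMO-KD CA1 limma called 0 of the 10, where 10.7% of all genes (1328) were called in either direction, and 2 of the 10 and 2993 of all genes had an unadjusted p under 0.05. The median log2 difference of the 10 genes was -0.15 in SUMO-KD and -0.12 in wild-type, against -0.02 and -0.04 over all genes. For the difference of the responses between genotypes limma called 0 of the 10, where 0.0161% of all genes (2) were called, and 3 of the 10 and 766 of all genes had an unadjusted p under 0.05.

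Sst, the precursor of somatostatin, an inhibitory peptide of interneurons that target dendrites, read 3534, 2780 and 3012 in SUMO-KD ischemia and 2320, 2876 and 2830 in SUMO-KD sham. It read 2203, 2132 and 1914 in wild-type ischemia and 3150, 2527 and 2614 in wild-type sham. The 3 wild-type ischemia arrays were below the 3 wild-type sham arrays, an order that Vip shared and that 19.5% of all genes (2422) showed. The log2 difference was 0.21 (SE 0.13) in SUMO-KD, where the arrays overlapped, and -0.40 (SE 0.13) in wild-type. The difference of the 2 responses was 0.61 (SE 0.18), rank 128 of all genes from the top, and was not called. After ischemia SUMO-KD exceeded wild-type by a log2 difference of 0.57 (SE 0.13). This was not called with all arrays and was called without SUMO-KD sham replicate 1 at the same 0.57. The wild-type ischemia call was lost on leaving out any array other than SUMO-KD ischemia replicate 1 or 2 or SUMO-KD sham replicate 1, and the differences ran from -0.46 to -0.30 over the 12 arrays left out in turn.

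Vip, the precursor of vasoactive intestinal peptide and a marker of interneurons that inhibit other interneurons, read 488, 296 and 400 in SUMO-KD ischemia and 440, 475 and 424 in SUMO-KD sham. It read 414, 371 and 267 in wild-type ischemia and 587, 638 and 441 in wild-type sham. Vip differed between ischemia and sham by -0.19 (SE 0.19) on the log2 scale in SUMO-KD, with overlapping arrays, and by -0.62 (SE 0.19) in wild-type. Their difference of 0.44 (SE 0.27) was not called. The wild-type call was kept only when the array left out was SUMO-KD ischemia replicate 1 or 2, wild-type ischemia replicate 1 or wild-type sham replicate 3, and over the 12 arrays left out in turn the differences ran from -0.77 to -0.46.

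Npy and Tac1 differed by neither genotype nor surgery beyond the threshold. Npy, the precursor of neuropeptide Y, a peptide that lowers excitability and is induced by seizures in rodents, read 3883, 2807 and 2841 in SUMO-KD ischemia and 2920, 2752 and 2607 in SUMO-KD sham. It read 3376, 2296 and 3569 in wild-type ischemia and 2653, 2498 and 2450 in wild-type sham. Both ischemia groups held the wider spread, at 19.2% and 22.3% coefficient of variation in SUMO-KD and wild-type against 5.67% and 4.19% in the sham groups. The ischemia difference was 0.19 (SE 0.17) in SUMO-KD and 0.25 (SE 0.17) in wild-type, and without wild-type ischemia replicate 2 the wild-type value was 0.45 and was called.

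Tac1, the precursor of substance P and neurokinin A, read 814, 974 and 912 in SUMO-KD ischemia and 767, 1010 and 1179 in SUMO-KD sham. It read 695, 1010 and 1344 in wild-type ischemia and 1095, 1230 and 1066 in wild-type sham. The arrays overlapped in each genotype comparison and in each ischemia comparison. The genotype differences were -0.12 (SE 0.21) after ischemia and -0.21 (SE 0.21) after sham surgery.

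Some of the spread within groups was shared between members and with markers of the thalamus, a region that lies beneath the hippocampus. The summed intensity of 7 measured thalamus markers (of 8 listed, with Lef1 at background) was 984 to 1989 in SUMO-KD ischemia, 2039 to 5131 in SUMO-KD sham, 1250 to 3669 in wild-type ischemia and 1379 to 2808 in wild-type sham. Its highest values were in SUMO-KD sham replicate 3 and wild-type ischemia replicate 3. Tac1, Resp18 and Baiap3 each had their highest value within those same groups on those 2 arrays, as did Tac2, a further tachykinin precursor, at 1137 and 958. Over the 12 arrays the deviations from the group means correlated with those of the thalamus sum at r = 0.77 for Tac1, 0.80 for Resp18, 0.55 for Baiap3 and -0.81 for Vip, and at 0.06 for Cartpt, 0.34 for Grp and 0.03 for Ecel1. Between members the deviations of Tac1 and Resp18 correlated at 0.84, those of Resp18 and Baiap3 at 0.68 and those of Penk and Baiap3 at -0.72. These are descriptions of 12 arrays that share their scaling and their tissue pools.

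Without those 2 arrays, a setting chosen after seeing the data, the genotype difference of Resp18 was 0.82 after sham surgery and 0.99 after ischemia, and that of Baiap3 was 2.20 and 1.58, all 4 called. Ecel1, at 1.22 and 1.23, was then called in neither. Sst at -0.34 and Vip at -0.46 were no longer called in the wild-type ischemia response. With fewer arrays, fewer of all genes were called: 111 against 260 for genotype after sham surgery and 1529 against 2291 for ischemia in wild-type. The differences of Ecel1 were no smaller than the 1.09 and 1.15 with all arrays. This setting cannot separate thalamus content from the lower number of arrays. The part of thalamus content in the differences was not tested.

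The tissue label was checked against other marker lists. The 5 measured CA1 pyramidal markers (of 8 listed, none at background) summed to 3876 to 5533 in SUMO-KD ischemia, 3899 to 6539 in SUMO-KD sham, 4226 to 6262 in wild-type ischemia and 8179 to 10951 in wild-type sham. All 5 were lower in SUMO-KD than in wild-type after sham surgery, with log2 differences of -0.99 to -0.48. Of these 2 were called, among them Wfs1 at -0.87 (adjusted p = 0.0145 by limma), where 74 of all 12394 genes were called lower. In wild-type, 2 of the 5 were called lower after ischemia, with a median of -0.60 over the 5. The wild-type sham group thus stood above the other 3 in CA1 markers, and the part of this in the genotype and ischemia differences of the members was not tested. Dentate granule markers (6 measured of 8, none at background) summed to 2587 to 3162 in SUMO-KD ischemia, 4252 to 5615 in SUMO-KD sham, 2701 to 2827 in wild-type ischemia and 2967 to 4735 in wild-type sham, and their part was not tested either. Both sums overlapped between the genotypes in the ischemia groups.

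GABAergic interneuron markers (18 measured of 22, with Erbb4 at background) lay close together, with the SUMO-KD sham arrays just under the wild-type sham arrays, at sums of 11051 to 12778 in SUMO-KD ischemia, 11891 to 12352 in SUMO-KD sham, 11214 to 13220 in wild-type ischemia and 12375 to 12523 in wild-type sham. After ischemia in wild-type, 3 of the 18 were called lower and 0 higher, where 8.88% of all genes were called lower. Their median log2 difference was -0.04, as over all genes (-0.04), with a range of -0.56 to 0.32. The lowest was Nxph1 at -0.56 (adjusted p = 0.00903 by limma). In SUMO-KD sham Dlx1 was lower by -0.58 and Nos1 higher by 0.54 (limma adjusted p = 0.0324 and 0.0497). The Dlx1 and Nos1 calls were lost in 8 and 18 of 24 settings, 5 and 10 of which left out 1 array. Hypothalamus markers, of a region rich in Cartpt and other peptides, had 7 of 16 measured genes at background in all groups, among them Trh, Rax and Nr5a1. Their sum was 741 to 862 in SUMO-KD ischemia, 775 to 1046 in SUMO-KD sham, 814 to 1100 in wild-type ischemia and 916 to 1257 in wild-type sham, and its part in the results was not tested.

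Of the other 8 marker lists, the summed level of CA2 and CA3, neocortical, microglial, oligodendrocyte and endothelial markers overlapped between the genotypes within each surgery, with Itgam, of microglia, the one gene at background. Choroid plexus markers (6 measured of 9) summed to 21226 to 26170 in SUMO-KD ischemia against 15084 to 20733 in wild-type ischemia, and overlapped in the sham groups. Astrocyte markers (8 of 8) summed to 16311 to 18752 in SUMO-KD sham against 14177 to 15736 in wild-type sham, and overlapped after ischemia. Striatal markers (6 of 9) summed to 1649 to 1973 in SUMO-KD sham against 2195 to 2784 in wild-type sham, and overlapped after ischemia. The part of these lists in the results on the members was not tested.

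**Figure D3:**
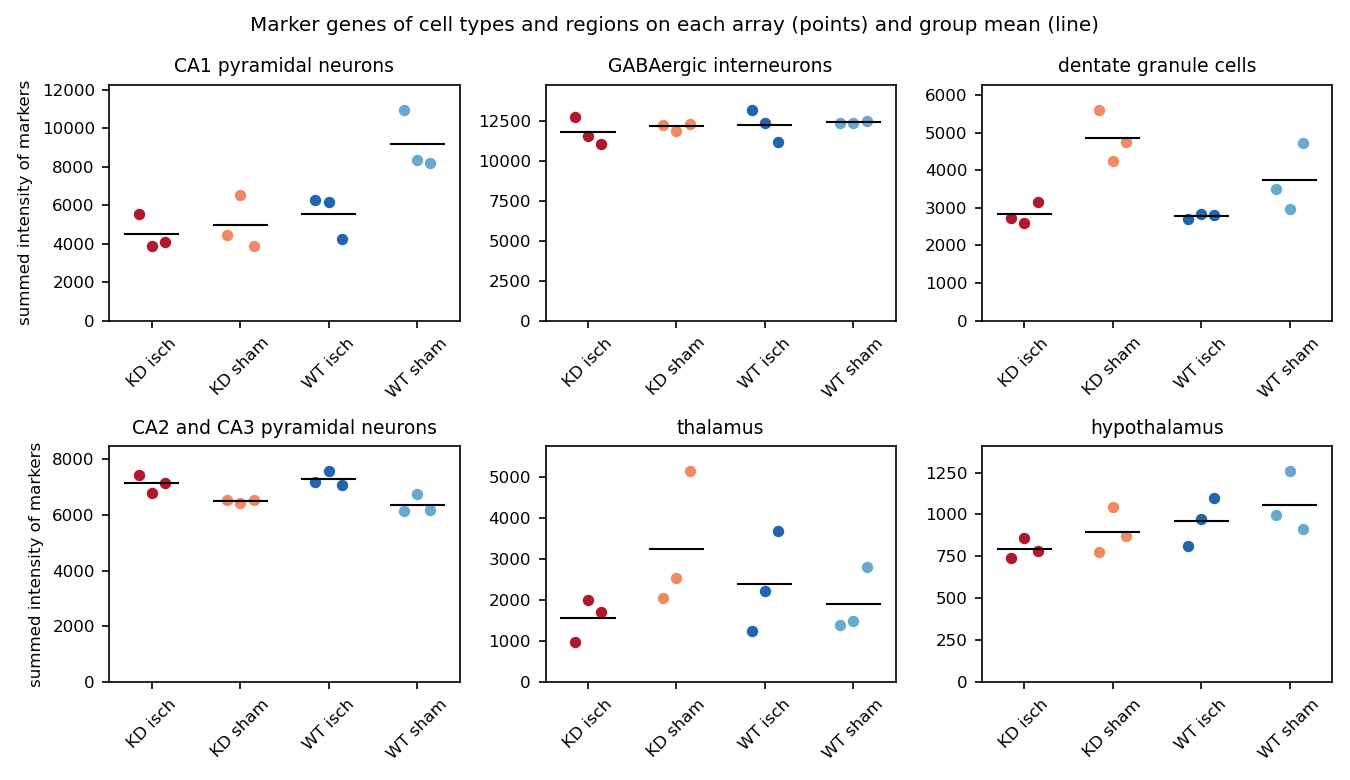
Summed linear intensity of marker genes of 4 hippocampal cell types and 2 neighbouring regions on every array (points) with the group mean (line), for SUMO-KD (KD) ischemia, KD sham, wild-type (WT) ischemia and WT sham, each axis from 0. CA1 markers are highest in WT sham at 8179 to 10951, GABAergic markers lie between 11051 and 13220 in all groups, and thalamus markers are highest on 1 KD sham array at 5131 and 1 WT ischemia array at 3669.

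The rest of the peptide pathway was described with 6 gene lists. Of 25 further neuropeptide precursors measured (38 listed), 1 was higher and 0 lower in SUMO-KD than in wild-type after ischemia. After sham surgery 2 were higher and 0 lower. Nmb, which encodes neuromedin B, the other mammalian bombesin-like peptide, was the one that passed in both. It averaged 190 ± 13.1 in SUMO-KD ischemia against 121 ± 21.7 in wild-type ischemia, then 209 ± 16.3 in SUMO-KD sham against 133 ± 15.03 in wild-type sham (SD, n = 3 each), with a log2 difference of 0.55 each time (limma adjusted p = 0.0400 and 0.0361). These calls were lost in 13 and 11 of 24 alternative settings, 9 and 7 of which left out 1 array, with adjusted p-values from 0.0220 to 0.164 and from 0.0199 to 0.174. The second precursor to pass after sham surgery, Ghrh, averaged 28.5 in SUMO-KD sham and 4.78 in wild-type sham, both within the background range, and its call (limma adjusted p = 0.0460) was lost in 16 of 23 settings, 10 of which left out 1 array. Tac2 had a log2 difference of 2.09 after sham surgery with an SE of 0.81, which did not pass (limma adjusted p = 0.263).

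Among 11 prohormone processing enzymes measured (12 listed), 1 rose in each genotype comparison and none fell. This was Pcsk1, which encodes prohormone convertase 1/3, an enzyme that makes the first cuts in many peptide precursors. Pcsk1 read 138, 126 and 116 in SUMO-KD ischemia, 216, 210 and 237 in SUMO-KD sham, 58.3, 52.0 and 77.5 in wild-type ischemia and 71.9, 55.7 and 32.4 in wild-type sham, so the genotypes did not overlap. The log2 difference was 1.60 (SE 0.16) after sham surgery (adjusted p = 0.000451 by limma) and passed in all 24 alternative settings. After ischemia it was 0.75 (SE 0.16) with a limma adjusted p of 0.0399, and 14 settings lost it, 9 of them with 1 array left out (adjusted p from 0.0162 to 0.146). Within SUMO-KD, Pcsk1 fell by 0.68 on the log2 scale after ischemia (limma adjusted p = 0.0192), lost in 6 of 24 settings, among them those without SUMO-KD ischemia replicate 2 or 3 or SUMO-KD sham replicate 1 or 3. In wild-type after ischemia, Cpd, a carboxypeptidase of the trans-Golgi network, and Pcsk7, a further convertase, rose by 0.76 and 0.61 (limma adjusted p = 0.00185 and 0.0160). The Cpd call was lost when a gene's probe sets were averaged (adjusted p = 0.210), and that of Pcsk7 was lost in 5 settings.

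Of 26 measured genes of the release machinery (31 listed), 1 was higher and 0 lower in SUMO-KD than in wild-type after either surgery. It was Cadps2, which primes dense-core vesicles for fusion. It averaged 2363 ± 227 in SUMO-KD ischemia against 1552 ± 17.9 in wild-type ischemia, then 2711 ± 206 in SUMO-KD sham against 1946 ± 223 in wild-type sham (SD, n = 3 each). The log2 differences were 0.59 and 0.47 (limma adjusted p = 0.0194 and 0.0451), and 6 and 15 of 24 settings lost the call, 4 and 10 of them with 1 array left out (adjusted p from 0.00466 to 0.0795 and from 0.0144 to 0.193). After ischemia in wild-type, Rph3a, a Rab3 effector, rose by 0.72 (adjusted p = 0.0419 by limma, lost in 11 of 24 settings), and 3 genes fell, among them Rab3c, a vesicle GTPase, with -0.64, and Ccdc186, of dense-core vesicle maturation, with -0.32 (limma adjusted p = 0.00496 and 0.0195).

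Of 9 granins and granule cargo genes measured (10 listed), 0 changed by genotype after ischemia, and 1 was higher in SUMO-KD sham than in wild-type sham. It was Chga, the precursor of chromogranin A, with a log2 difference of 0.46 (limma adjusted p = 0.0455, lost in 14 of 24 settings with values up to 0.165). After ischemia 1 rose in SUMO-KD and 4 rose in wild-type. Bdnf, a neurotrophin carried in these vesicles, rose by 1.11 in SUMO-KD and by 1.16 in wild-type (limma adjusted p = 0.00135 and 0.000724). In wild-type Chga rose by 0.63 and Nucb2, the precursor of nesfatin, by 0.65 (limma adjusted p = 0.00163 and 0.00270). Whether the genotypes differed in these responses passed for none of the 9.

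None of 35 neuropeptide receptors measured (39 listed) changed by genotype at an adjusted p under 0.05 in limma; at an unadjusted p under 0.05 there were 7 after ischemia and 4 after sham surgery. After ischemia 3 rose and 1 fell in SUMO-KD, and 1 rose and 1 fell in wild-type. Sstr2, a receptor for somatostatin, averaged 286 ± 81.5 in SUMO-KD ischemia against 108 ± 20.2 in SUMO-KD sham, and 450 ± 161 in wild-type ischemia against 145 ± 29.2 in wild-type sham (SD, n = 3 each). The rises were 1.16 and 1.41 on the log2 scale (limma adjusted p = 0.00880 and 0.00176). Npy5r, a neuropeptide Y receptor, fell by 0.83 in SUMO-KD and by 0.71 in wild-type (limma adjusted p = 0.00878 and 0.0133). Cckbr, the cholecystokinin B receptor, rose by 1.31 in SUMO-KD (limma adjusted p = 0.00384). Of 15 neuropeptide-degrading peptidases measured (17 listed), 0 passed in either genotype comparison in limma, with 0 after ischemia and 1 after sham surgery at an unadjusted p under 0.05.

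**Figure D4:**
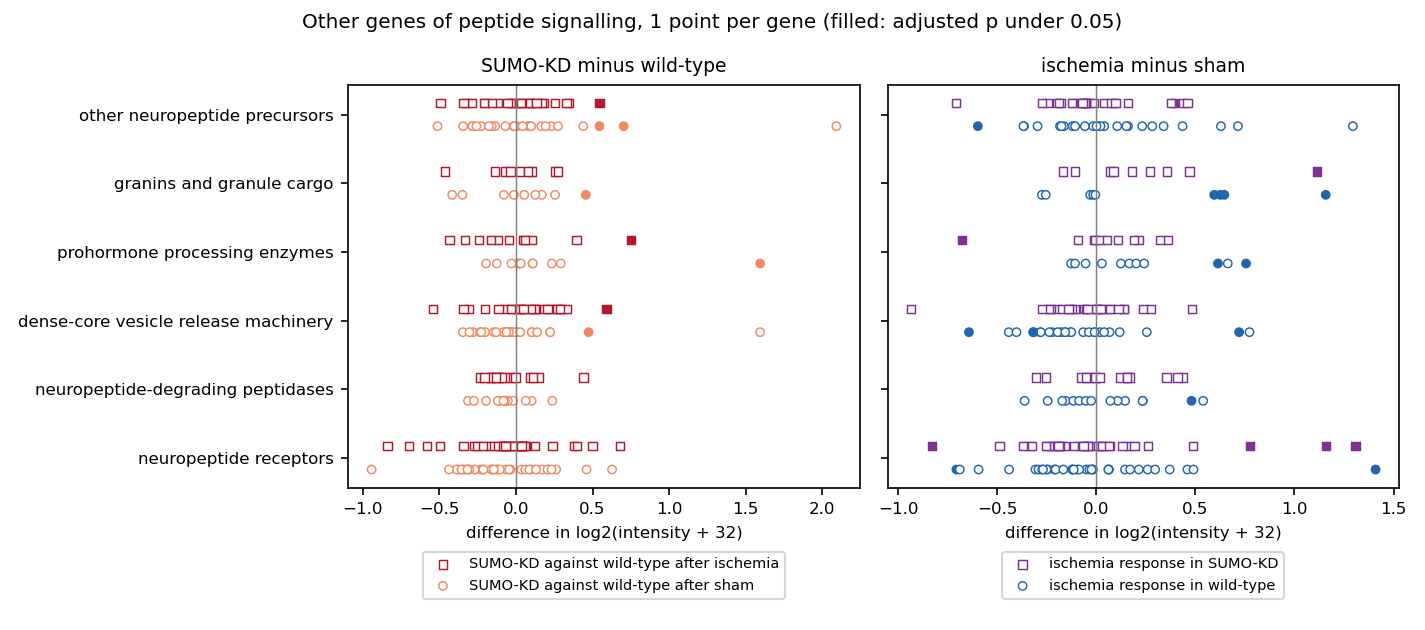
Differences in log2(intensity + 32) for every measured gene of 6 peptide signalling lists, 1 point per gene, SUMO-KD minus wild-type on the left (squares after ischemia, circles after sham) and ischemia minus sham on the right (squares in SUMO-KD, circles in wild-type), filled where the limma adjusted p was under 0.05. Most points lie near 0; Pcsk1 is the filled processing enzyme at 1.60 after sham, and Tac2 at 2.09 is open because its replicates spread widely.

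Genes induced by neuronal activity and CREB were set beside the members. Of 16 measured (17 listed), 12 rose and 0 fell after ischemia in SUMO-KD, and 14 rose and 1 fell in wild-type, with medians of 1.77 and 1.60 on the log2 scale. Fos rose by 4.41 in SUMO-KD and by 3.59 in wild-type, and Atf3 by 4.32 and 4.88 (limma adjusted p = 1.11e-06, 3.27e-06, 1.94e-07 and 1.09e-07). Among the 8 promoters read, 4 held a CRE match, those of Cartpt, Sst, Vip and Tac1. None of these 4 members was called higher after ischemia in either genotype. Over all genes 6.09% (755) in SUMO-KD and 9.6% (1190) in wild-type were, so that 0 of these 4 members is near the background. Their log2 differences were -0.24, 0.21, -0.19 and -0.11 in SUMO-KD and -0.05, -0.40, -0.62 and -0.19 in wild-type. By genotype, 3 of the 16 activity genes were lower and 0 higher in SUMO-KD than in wild-type after each surgery. A link to the members was not tested. Among sham arrays, Arc, Nr4a1 and Egr1 were lower in SUMO-KD than in wild-type by 1.40, 1.22 and 0.86 (limma adjusted p = 0.00146, 0.0123 and 0.00998). Inhba, Nptx2 and Rgs2 fell by 2.07, 1.47 and 1.25 after ischemia (limma adjusted p = 0.00106, 0.00237 and 0.00152).

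The genes whose pattern over the 12 arrays was most like that of a member were sought among genes with a mean intensity of at least 100. Cartpt and Grp had the same nearest gene, Tcfl5, a basic helix-loop-helix transcription factor, at a Pearson r of 0.99 each, and they correlated with each other at 0.98. The mean of Tcfl5 was 836 (ischemia) and 1147 (sham) in SUMO-KD, against 32.3 (ischemia) and 24.6 (sham) in wild-type. Card10 was near both Resp18 and Baiap3 (r = 0.97 each), and Phka2 was nearest to Ecel1 (r = 0.99). For genes with a genotype gap such an r mostly restates the gap. Within groups Cartpt and Grp did not move together, with a correlation of deviations of -0.16. Penk was nearest to Zfp688 (r = 0.95), Vip to Olfml2b (0.96), Tac1 to Cox6b2 (0.94), Npy to Kcmf1 (0.87) and Sst to Ptpru (0.86).

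**Figure D5:**
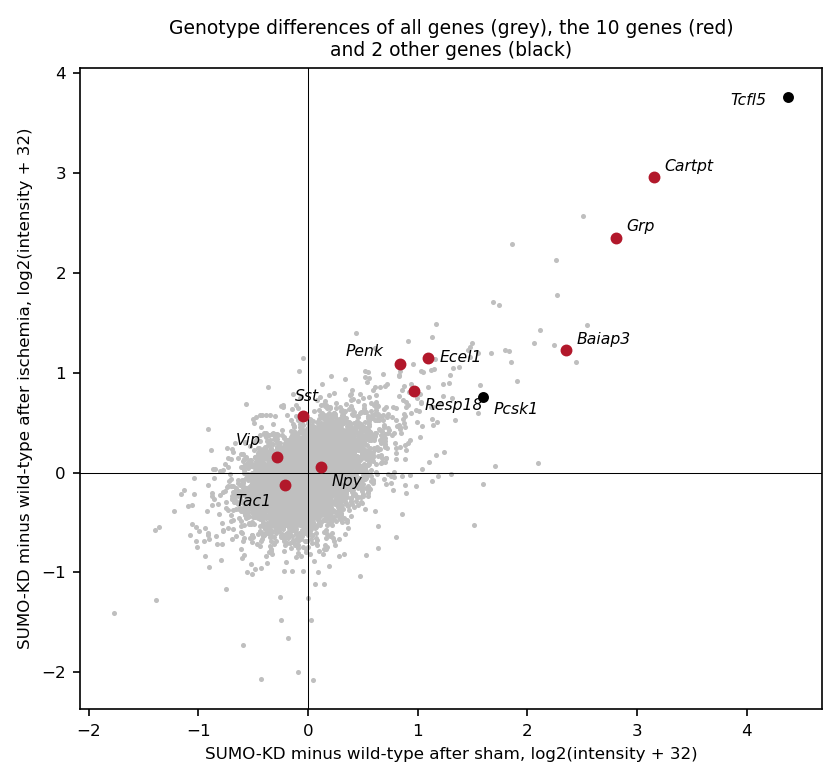
SUMO-KD minus wild-type difference in log2(intensity + 32) after sham (x axis) and after ischemia (y axis) for all 12394 genes (grey), the 10 genes (red) and Tcfl5 and Pcsk1 (black). Cartpt (3.15, 2.96) and Grp (2.80, 2.35) lie far from the cloud in both directions, Baiap3 (2.36, 1.23) and Pcsk1 (1.60, 0.75) lie further out after sham than after ischemia, and Npy, Vip and Tac1 lie near 0.

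The 10 genes lie on 8 chromosomes. The 5 nearest measured genes on each side of every member, 100 in all, were compared between the genotypes, a check added after seeing the data. In SUMO-KD 0 of the 100 were called after ischemia, and 2 were called higher after sham surgery, Gpnmb beside Npy and Trp63 beside Sst, with log2 differences of 1.57 and 0.71 (limma adjusted p = 0.00241 and 0.00713). No neighbour of Cartpt, Grp, Resp18, Ecel1 or Baiap3 was called, and those of Cartpt differed by -0.40 to 0.28.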

How the data were processed

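Total RNA of CA1 tissue was measured on 12 Affymetrix arrays, 1 biotin-labelled target each, extracted with Trizol per the labels' protocols. The authors' deposited table gives a linear intensity for every probe set on every array. Partek 6.6 and RMA appear, per the submitters' processing notes, with no role; the deposited intensity is not on RMA's log2 scale, its mean after trimming 2% at each end is 500.2 on all arrays, and no source used here says how it was made.

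Probe sets with several symbols (691) or none listed (1606) were left out, 20393 remained, and the probe set with the highest mean stood for each gene. limma 3.58.1 in R 4.3.3 (lmFit, eBayes) was run on log2(intensity + 32) for 4 groups of 3 arrays, two-sided, with Benjamini-Hochberg adjustment over 12394 genes, after a test on simulated data. The offset of 32 follows an earlier analysis of these data. No detection call was used, and precision is limited by the number of arrays. The members, the 7 pathway lists and the 13 marker lists were chosen with earlier results of these data known. Other genes were named from a set made by rule, and not every gene of the set is named. It held up to 3 called genes with the largest difference per pathway list and comparison, and up to 2 per marker list. It also held markers with group means under 32 and the genes most correlated with a member. Tac2 and the neighbours were named after their values were seen. Alternatives were 24 settings and 1 added later. Sequences are from RefSeq, GRCm38.p6.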

Additional observations from a re-analysis of the deposited data

How the results depend on the processing

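The number of the 10 genes called was 5 for SUMO-KD against wild-type after sham surgery, and stayed at 4 or 5 under all 24 planned settings. After ischemia it was 4; it became 7 with array weights, eBayes trend and robust, a mean intensity of at least 64, an offset of 64 or quantile normalization, became 2 with the compared groups alone or an offset of 1, and was 2 to 5 with 1 array left out. Penk, Baiap3 and Sst were the additions. The wild-type ischemia response, 2 genes, gave 0 with the compared groups alone, offsets of 1 or 16, or the 2 thalamus-high arrays left out, 1 with every probe set by itself, and 0 to 2 with 1 array left out. The SUMO-KD ischemia response, 0 genes, gave 1 (Grp) with a mean intensity of at least 64 or median centring, and 0 to 1 with 1 array left out. The replicate block gave 1 member for the wild-type ischemia response and 5 for the genotypes after ischemia. Of 18 same-number correlations, from -0.17 to 0.28, 5 passed 0.1, and 6 of 12 arrays correlated best with their own number. These values cannot show whether the numbers pair the samples. The difference of the responses stayed at 0. The calls of Cartpt and Grp in both genotype comparisons, and of Resp18 and Baiap3 after sham surgery, held in all 25 settings, and no called difference changed sign.

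Counts over all genes were 260 after sham surgery (111 without the 2 thalamus-high arrays, 461 with array weights) and 193 after ischemia (48 with the compared groups alone, 331 with array weights). They were 1328 for ischemia in SUMO-KD (763 to 1409 with 1 array left out, up to 1911 with array weights) and 2291 in wild-type (1529 to 2624). Values near 32 limit Ecel1 and Baiap3 in wild-type. The causes of these shifts were not tested.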
